A study of Mus musculus with 21 samples.

Results

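Marker genes that separate the excitatory cell fields of the mouse hippocampus were followed in GA-Camk2a mice and control mice. They are 10 genes, taken by symbol from a count table of 64361 genes: Prox1, C1ql2, Dsp and Tdo2 for the granule cells of the dentate gyrus, Fibcd1, Wfs1 and Spink8 for the pyramidal cells of CA1, and Grik4, Amigo2 and Rgs14 for the pyramidal cells of CA2 and CA3. All 10 were found. GA-Camk2a mice carry a floxed, GFP-tagged transgene for poly-GA, the glycine-alanine dipeptide repeat protein of C9orf72 ALS, which a Camk2a-Cre driver switches on in excitatory neurons, so the cells that the markers label are among those that can express it. The controls are labelled only as control. The study names its controls for stained tissue of this line Camk2a, and whether the controls sequenced here carried the driver is not given in the sources used here. Both groups had a C57BL/6J background, came from 2 litters and were killed at an age of 30 to 40 weeks, when the transgenic animals reached the humane endpoint.

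RNA of the whole tissue was sequenced with prime-seq, which counts polyadenylated transcripts from their 3′ ends, in 21 libraries from 11 mice. Of these, 10 were hippocampi, 4 from control and 6 from GA-Camk2a mice, and 11 were cortices, 5 from control and 6 from GA-Camk2a mice, and 10 mice gave both tissues. This split of the controls follows the sample labels, and a figure legend of the study gives a different split between the tissues. Total counts ranged from 1754999 to 5888102 in control hippocampus, from 1361268 to 3348378 in GA-Camk2a hippocampus, from 1048201 to 3609323 in control cortex and from 1112553 to 2857816 in GA-Camk2a cortex. Levels are given in CPM, the count of a gene scaled by the total count of its library. The GFP row held at most 4 counts in any library and had counts in 2 of 5 control cortex libraries, so it could not check the genotype labels. Of the hippocampal libraries, 3 stood apart in Rorb, with 1455 CPM in control mouse 11, 5303 CPM in GA-Camk2a mouse 16 and 4414 CPM in GA-Camk2a mouse 30 against 86.6 to 165 CPM in the others. Summed choroid plexus markers ranged from 1810 to 32723 CPM in control hippocampus and from 1839 to 55530 CPM in GA-Camk2a hippocampus, where mice 16, 30 and 35 were above 40000 CPM. Results are therefore also given without these libraries where a call changed.

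The hippocampus passes signals along a chain of excitatory neurons. Granule cells of the dentate gyrus receive cortical input and send mossy fibres to CA3, CA3 pyramidal cells project to CA1, and CA1 forms the main output, while the small CA2 field lies between CA3 and CA1 and is known for its resistance to synaptic plasticity. Each field has its own transcription program, which is kept in the adult, and marker genes of a field can be followed in RNA from the whole tissue. In bulk RNA, fewer cells of a type and less RNA of a marker per cell cannot be told apart.

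As a check of the markers, hippocampus and cortex were first compared in control mice. In this comparison 9 of the 10 markers were higher in hippocampus (edgeR, adjusted p under 0.05), where 8.69% of the 14435 genes tested were called higher, and none was lower, where 7.6% were and 16.3% were called in either direction. For the same 9 markers every hippocampal library lay above every cortical library, as for 8.15% of the genes tested, and none lay below, as 5.58% did. In batch 2 alone 6 markers were called, since Grik4 and Amigo2 did not pass (0.79 and 0.73, adjusted p = 0.109 and 0.0928 in edgeR) and Tdo2 fell under the filter. Tdo2 also fell under it without the Rorb-high hippocampal library of control mouse 11, which left 8 markers called. The dentate markers were higher by 1.55 to 2.86 on the log2 scale, with a median of 2.44. Spink8 was higher by 3.17 ± 0.15 (SE, adjusted p = 1.19e-09 in edgeR), from 8.75 ± 1.11 CPM (SD, n = 5) in cortex to 84.3 ± 15.9 CPM (SD, n = 4) in hippocampus, and Fibcd1 by 2.30 ± 0.20 (SE, adjusted p = 6.48e-07). The CA2/CA3 markers differed less, with 1.14 for Grik4, 1.31 for Amigo2 and 0.79 for Rgs14. Wfs1 went against its label as a hippocampal marker. It had 55.1 ± 6.94 CPM (SD, n = 4) in hippocampus and 61.2 ± 7.90 CPM (SD, n = 5) in cortex, a log2 difference of -0.23 ± 0.12 (SE, adjusted p = 0.215 in edgeR). The median over all genes tested was -0.000887.

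Between the genotypes, 5 of the 6 markers of CA1 and CA2/CA3 were lower in the hippocampus of GA-Camk2a mice, and no difference was detected in the 4 dentate markers. The 5 of 10 that passed the threshold were Fibcd1, Wfs1 and Spink8 of CA1, and Amigo2 and Rgs14 of CA2/CA3. Of the 14884 genes tested, 5.97% were called lower, 4.97% higher and 10.9% in either direction. The median log2 fold change was -0.18 for the 4 dentate markers, -1.05 for the 3 CA1 markers and -0.92 for the 3 CA2/CA3 markers, beside 0.02 for all genes tested. Every GA-Camk2a library lay below every control library for Wfs1, Spink8, Amigo2 and Rgs14, a separation that 4.02% of the genes tested showed in that direction. No marker had all GA-Camk2a libraries above all controls, as 5.6% of the genes did.

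**Figure D1:**
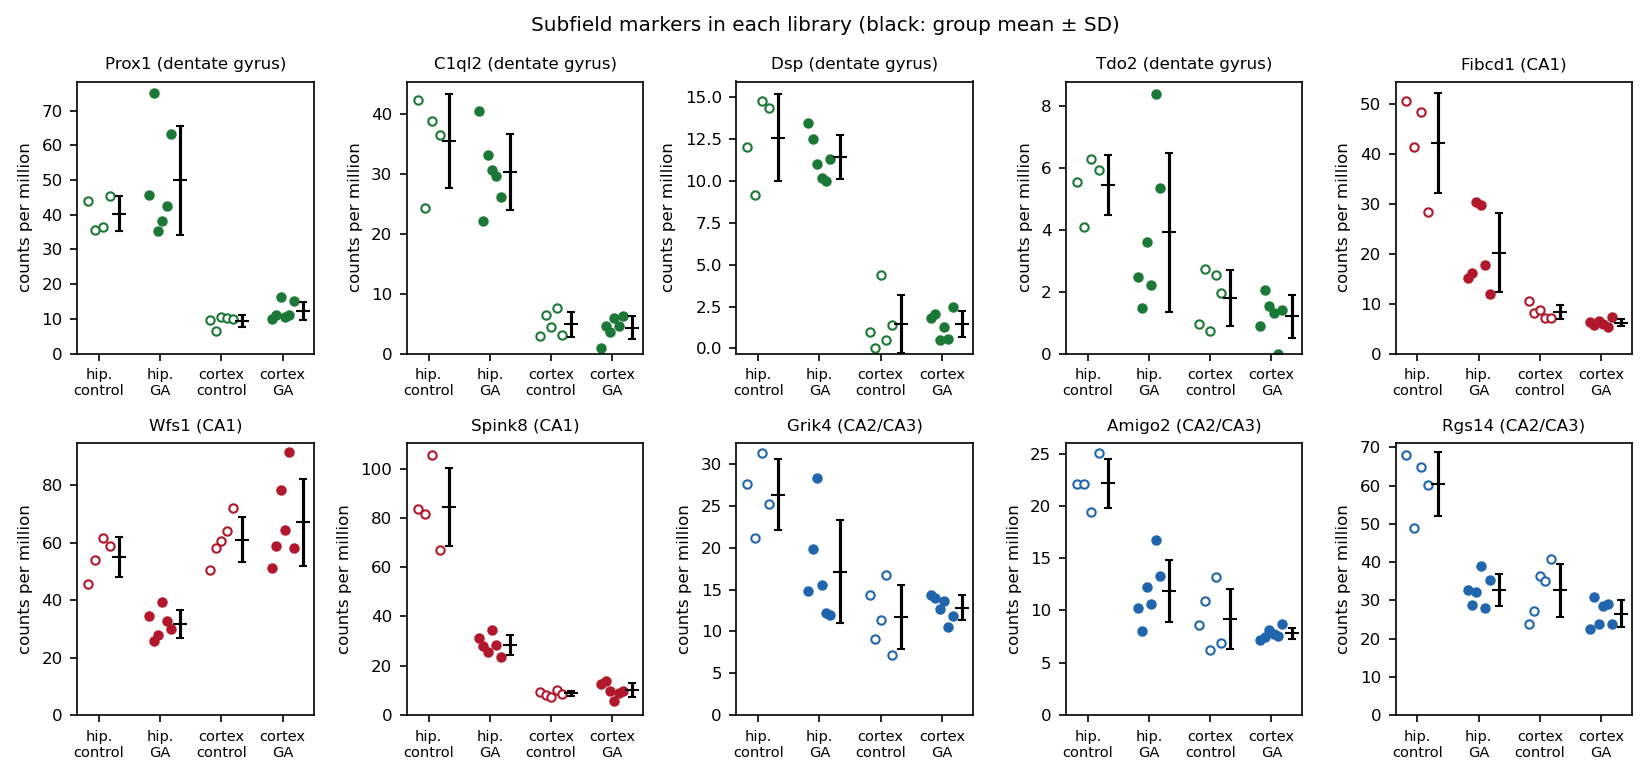
CPM of each marker in every library, in hippocampus and cortex of control (open) and GA-Camk2a mice (filled), with the group mean ± SD in black. Spink8 sits between 66.8 and 105 CPM in control hippocampus and between 23.3 and 34.6 CPM in GA-Camk2a hippocampus, whereas the 4 dentate markers overlap between the genotypes.

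Spink8, which encodes a predicted Kazal-type serine protease inhibitor, showed the largest fold change of the 10 markers. Control hippocampi of mice 11, 20, 31 and 37 had 83.5, 81.7, 105 and 66.8 CPM, and GA-Camk2a hippocampi ranged from 23.3 to 34.6 CPM with a median of 28.2 CPM (n = 6). The highest GA-Camk2a library therefore stayed under the lowest control. The mean in GA-Camk2a mice was 33.8% of the control mean, and the log2 fold change was -1.57 ± 0.13 (SE, adjusted p = 6.69e-06 in edgeR). Within the batches of the labels the difference of mean log2 CPM was -1.28 in batch 1 and -1.75 in batch 2.

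Wfs1 encodes wolframin, a membrane protein of the endoplasmic reticulum. The 4 controls had 45.8, 54.2, 61.5 and 59.0 CPM in the same order of mice, and GA-Camk2a libraries had 25.7 to 39.5 CPM with a median of 31.5 CPM. The groups did not overlap, and the log2 fold change was -0.83 ± 0.13 (SE, adjusted p = 0.00086 in edgeR). Fibcd1 encodes a membrane receptor that binds acetylated sugars. Its controls had 50.7, 41.4, 48.4 and 28.5 CPM, and GA-Camk2a libraries had 12.01 to 30.5 CPM with a median of 17.0 CPM. Here the groups overlapped, since mice 30 and 34, with 30.5 and 29.7 CPM, lay above control mouse 37, and the other 4 GA-Camk2a libraries lay below all controls. The log2 fold change of Fibcd1 was -1.05 ± 0.23 (SE, adjusted p = 0.0070 in edgeR). With the 5 libraries of batch 1 alone the calls of Wfs1 and Fibcd1 were lost (log2 fold changes of -0.69 and -0.67, adjusted p = 0.175 and 0.437 in edgeR).

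Of the CA2/CA3 markers, Rgs14 had the smallest adjusted p. It encodes a regulator of G-protein signalling that is enriched in CA2 and restrains synaptic potentiation there. Controls had 67.9, 48.9, 65.0 and 60.2 CPM, and GA-Camk2a libraries had 27.9 to 39.0 CPM with a median of 32.4 CPM. The log2 fold change of Rgs14 was -0.92 ± 0.11 (SE, adjusted p = 7.28e-05 in edgeR), and the difference of mean log2 CPM within batches was -0.87 and -0.85.

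Amigo2 encodes a cell adhesion protein with leucine-rich repeats. Controls had 22.1, 22.1, 19.4 and 25.1 CPM, against 8.08 to 16.7 CPM with a median of 11.4 CPM in GA-Camk2a mice. The groups were separate, with a log2 fold change of -0.95 ± 0.18 (SE, adjusted p = 0.00253 in edgeR). In either batch alone the Amigo2 call was lost (edgeR, log2 fold change -1.12 with adjusted p = 0.054 in batch 1, and -0.76 with 0.138 in batch 2).

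Grik4 encodes a kainate receptor subunit. Controls had 27.6, 21.2, 31.3 and 25.3 CPM, and GA-Camk2a libraries had 12.01 to 28.4 CPM with a median of 15.2 CPM. Of the 6 GA-Camk2a libraries, 5 were below all controls, and the exception was mouse 30, whose 28.4 CPM exceeded 3 of the 4 controls. The log2 fold change was -0.61 ± 0.20 (SE) and did not pass the threshold (edgeR, adjusted p = 0.0716 and unadjusted p = 0.00954). Without mouse 30 it was -0.84 and passed (edgeR, adjusted p = 0.00438), as it did without the 3 Rorb-high libraries (-0.82, adjusted p = 0.0201) and without the 3 choroid-high libraries (-0.79, adjusted p = 0.034). Both of these sets hold mouse 30. The other 5 calls were kept in both, which made 6 of 10 markers called lower, where 502 of 13413 genes tested were called lower without the Rorb-high libraries and 465 of 14305 without the choroid-high ones.

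The dentate markers did not pass the threshold in either direction. Prox1, the homeobox transcription factor that maintains granule cell identity, had 43.8, 35.5, 36.5 and 45.4 CPM in the controls and 35.2 to 74.9 CPM in GA-Camk2a mice, with a median of 44.0 CPM. Mice 23 and 41 were the highest, at 74.9 and 63.4 CPM. The log2 fold change of Prox1 was 0.21 ± 0.17 (SE, adjusted p = 0.494 in edgeR), and the difference of mean log2 CPM was -0.17 in batch 1 and 0.71 in batch 2, so the batches gave opposite signs.

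C1ql2 encodes a secreted synaptic organizer of mossy fibre terminals. It had 42.2, 24.3, 38.7 and 36.5 CPM in controls and 22.0 to 40.4 CPM, with a median of 30.1 CPM, in GA-Camk2a mice. Dsp encodes desmoplakin, a cytoskeletal linker of desmosomes. It had 12.02, 9.17, 14.8 and 14.4 CPM in controls and 10.0 to 13.5 CPM with a median of 11.2 CPM. The log2 fold changes were -0.22 ± 0.14 for C1ql2 and -0.15 ± 0.18 for Dsp (SE, adjusted p = 0.378 and 0.675 in edgeR).

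Tdo2, the dioxygenase that opens the kynurenine pathway of tryptophan breakdown, had few counts. Controls held 17, 24, 11 and 26 counts, or 5.52, 4.08, 6.27 and 5.93 CPM, and GA-Camk2a libraries held 2 to 15 counts, or 1.47 to 8.36 CPM with a median of 3.03 CPM. Of these 4 were below all controls and mouse 35 was above all of them. The log2 fold change was -0.50 ± 0.35 (SE, adjusted p = 0.412 in edgeR), the widest error of the 10 markers.

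**Figure D2:**
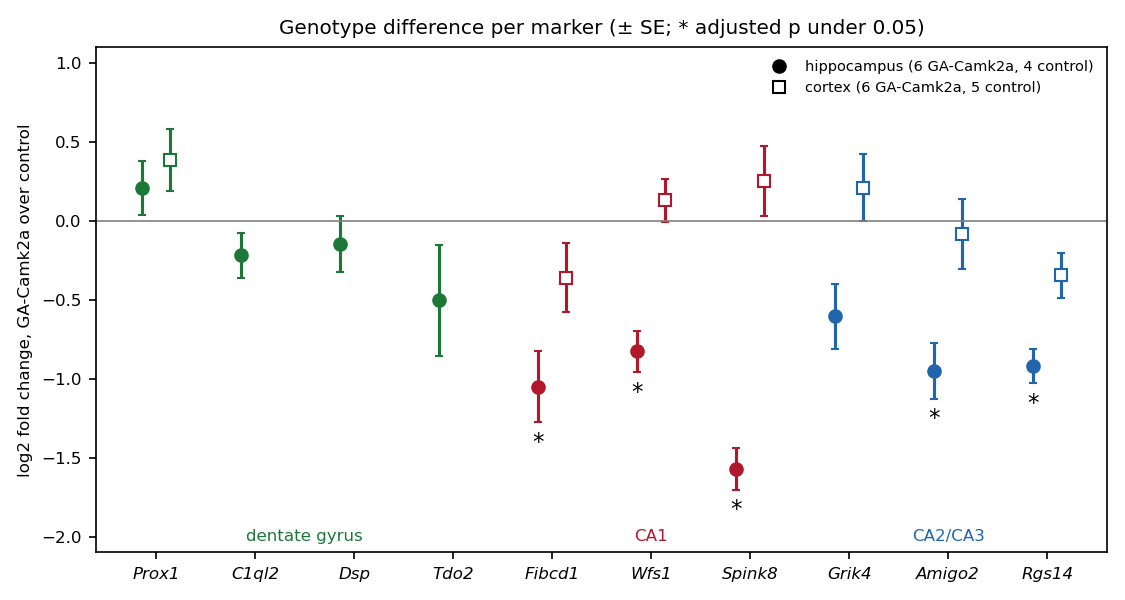
Log2 fold change of GA-Camk2a over control mice for each marker, in hippocampus (filled circles) and cortex (open squares), with bars for the SE and asterisks for an adjusted p under 0.05. In hippocampus the CA1 and CA2/CA3 markers lie between -1.57 and -0.61 and the dentate markers between -0.50 and 0.21.

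Promoter sequences of the markers were read from RefSeq on build GRCm38.p6, for 8 of the 10 markers. They are shown as background, and a link between the sequences and the genotype differences was not tested. Spink8 and Rgs14 had no entry. The 250 bases before the annotated start are printed 5′ to 3′ on the strand of the gene for Fibcd1, Wfs1 and Amigo2, which were lower in GA-Camk2a hippocampus, and for the dentate marker C1ql2, which was not. Capitals mark matches, on either strand, to a GC box, a CCAAT box, a TATA box, an E-box or a cAMP response element, whose letters follow below the sequences. Each was searched on its own, so matches may overlap.
Fibcd1 (chr2:31846006-31846255, minus strand): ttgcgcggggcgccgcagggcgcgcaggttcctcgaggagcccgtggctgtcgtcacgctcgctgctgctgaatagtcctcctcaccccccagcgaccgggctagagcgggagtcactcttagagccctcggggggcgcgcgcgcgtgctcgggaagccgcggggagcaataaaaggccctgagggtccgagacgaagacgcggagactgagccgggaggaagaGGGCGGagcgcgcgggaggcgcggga
Wfs1 (chr5:36988983-36989232, minus strand): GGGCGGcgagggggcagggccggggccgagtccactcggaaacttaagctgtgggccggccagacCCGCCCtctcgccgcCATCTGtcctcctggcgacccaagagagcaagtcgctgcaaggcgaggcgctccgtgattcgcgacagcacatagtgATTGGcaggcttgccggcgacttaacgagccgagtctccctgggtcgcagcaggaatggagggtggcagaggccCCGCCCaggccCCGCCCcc
Amigo2 (chr15:97247288-97247537, minus strand): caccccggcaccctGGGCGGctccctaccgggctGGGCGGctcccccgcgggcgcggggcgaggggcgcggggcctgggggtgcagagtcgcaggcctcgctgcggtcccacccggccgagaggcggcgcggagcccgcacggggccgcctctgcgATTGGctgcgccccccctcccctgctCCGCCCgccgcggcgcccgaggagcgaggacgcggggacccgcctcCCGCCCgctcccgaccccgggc
C1ql2 (chr1:120340332-120340581, plus strand): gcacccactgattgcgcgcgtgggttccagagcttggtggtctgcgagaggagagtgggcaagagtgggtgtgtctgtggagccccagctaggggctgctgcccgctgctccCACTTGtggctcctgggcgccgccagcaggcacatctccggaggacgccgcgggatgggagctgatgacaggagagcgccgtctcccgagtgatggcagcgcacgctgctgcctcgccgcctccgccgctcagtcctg

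A GC box, with the letters GGGCGG, was present in all 4 CA markers with a promoter entry: Fibcd1 with 1, Wfs1 and Amigo2 with 4 each, and Grik4 with 1. It was also present in the dentate marker Dsp, with 4, and in both entries of Prox1, and it was absent from C1ql2 and Tdo2. Of 32851 promoters of this length 32.7% held one. The promoters of the CA markers were rich in G and C, at 69.6% to 84.0%, beside a median of 52.4% over all promoters, and so were those of C1ql2 at 68.8% and Dsp at 72.4%. The entries of Prox1 had 64.8% and 56.0%, and Tdo2, at 46.4%, was below that median. A CCAAT box, which is named by its letters, was found in Wfs1, Amigo2 and Tdo2 and in 33.8% of all promoters, and an E-box, CANNTG, in Wfs1, C1ql2 and the first entry of Prox1 and in 66.2% of all. A TATA box, searched as TATAAA, occurred in the first entry of Prox1 and in Tdo2, and in 12.4% of all promoters. The cAMP response element TGACGTCA was in none of the 9 entries and in 1.55% of all promoters. These matches are letters in a window and say nothing about binding.

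A comparison of marker sets within a library does not depend on how the libraries are scaled to each other. A dependence on depth remains for markers with few counts, since a prior count of 2 was added before the log. For each library the mean log2 CPM (prior count of 2) of the CA1 markers was subtracted from that of the dentate markers. These differences were -1.57, -2.04, -1.75 and -1.29 in control hippocampi and -1.30 to -0.15, with a median of -0.58, in GA-Camk2a hippocampi. Only mouse 34, at -1.30, reached the controls, just under control mouse 37 at -1.29. Dentate minus CA2/CA3 was -0.85, -1.05, -0.78 and -0.77 in controls and -0.56 to 0.03, with a median of -0.11, in GA-Camk2a mice, and here the groups did not overlap. In cortex both differences overlapped between the genotypes, with -2.23 to -1.88 against -2.38 to -1.62 for dentate minus CA1 and -2.13 to -1.67 against -2.07 to -1.46 for dentate minus CA2/CA3. C1ql2, Dsp and Tdo2 had few counts in cortex, so the dentate mean was imprecise there. CA1 minus CA2/CA3 overlapped in hippocampus, with 0.51 to 0.99 in controls and 0.17 to 0.85 in GA-Camk2a mice. No test was run on these differences, since the markers were chosen with earlier results known.

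**Figure D3:**
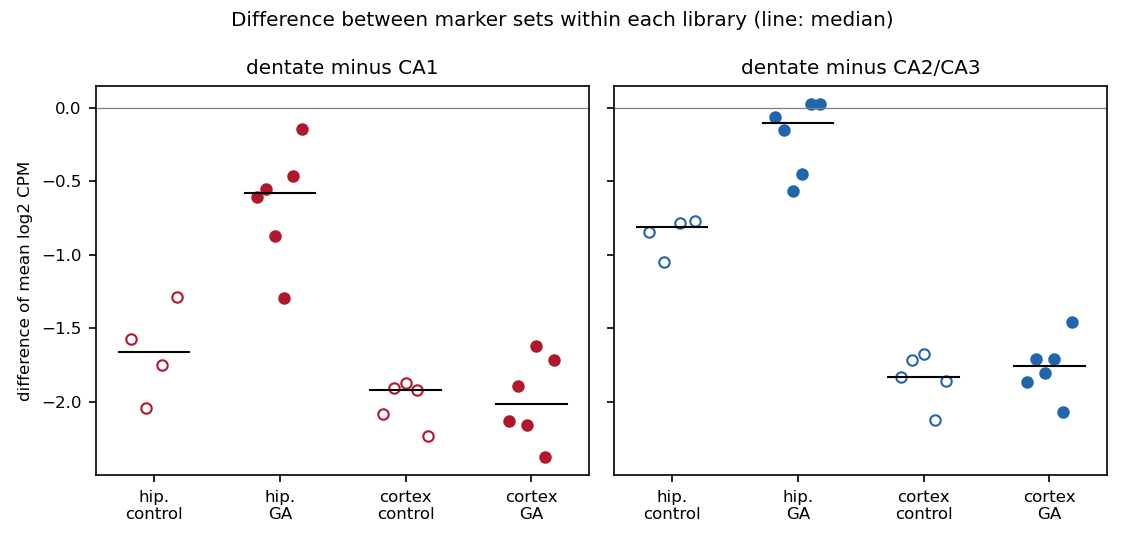
Difference between the mean log2 CPM of the dentate markers and that of the CA1 markers (left) or of the CA2/CA3 markers (right) in every library, with lines at the group medians. In hippocampus the medians are -1.66 in control and -0.58 in GA-Camk2a mice for CA1, and -0.81 and -0.11 for CA2/CA3, and in cortex the genotypes overlap.

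In control hippocampi, mouse 20 was the lowest in all 4 dentate markers and in Grik4 and Rgs14. Mouse 37 was the lowest in Fibcd1 and Spink8, mouse 11 in Wfs1 and mouse 31 in Amigo2. Among GA-Camk2a hippocampi the markers of a field did not rank the mice alike, and mouse 34 was highest in Wfs1, Spink8 and Rgs14, mouse 30 in Fibcd1 and Grik4, and mouse 35 in Amigo2 and Tdo2. Mouse 23 had the most Prox1 and the least C1ql2 and Amigo2. The coefficient of variation over the 6 libraries was lowest for Dsp, Rgs14 and Spink8, at 11.7%, 12.8% and 13.95%, and highest for Tdo2, at 65.5%.

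The genotype difference was also computed after scaling each library to the summed counts of 9 pan-neuronal genes in place of the total. In hippocampus this moved the median log2 fold change of all genes from 0.02 to 0.51. A scaling of whole libraries shifts all genes nearly alike, so the values relative to that median stayed by construction close to those of the first scaling, with -1.58 for Spink8, -1.09 for Fibcd1, -0.97 for Amigo2, -0.93 for Rgs14, -0.84 for Wfs1 and 0.20 for Prox1. At this scaling 9364 of the 14884 genes tested were called higher and 104 lower. On the scale of the fit itself, Spink8 at -1.07, Fibcd1 at -0.58 and Rgs14 at -0.42 still passed (edgeR, adjusted p = 7.48e-05, 0.0253 and 0.00633). Wfs1 at -0.33 and Amigo2 at -0.46 no longer did (adjusted p = 0.0557 and 0.0508). Prox1 at 0.71 was called higher (adjusted p = 0.00549), C1ql2 at 0.28 and Dsp at 0.35 turned positive without passing, and Tdo2 was at -0.02. C1ql2 and Dsp thus had opposite signs on the 2 scales of the fits.

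**Figure D4:**
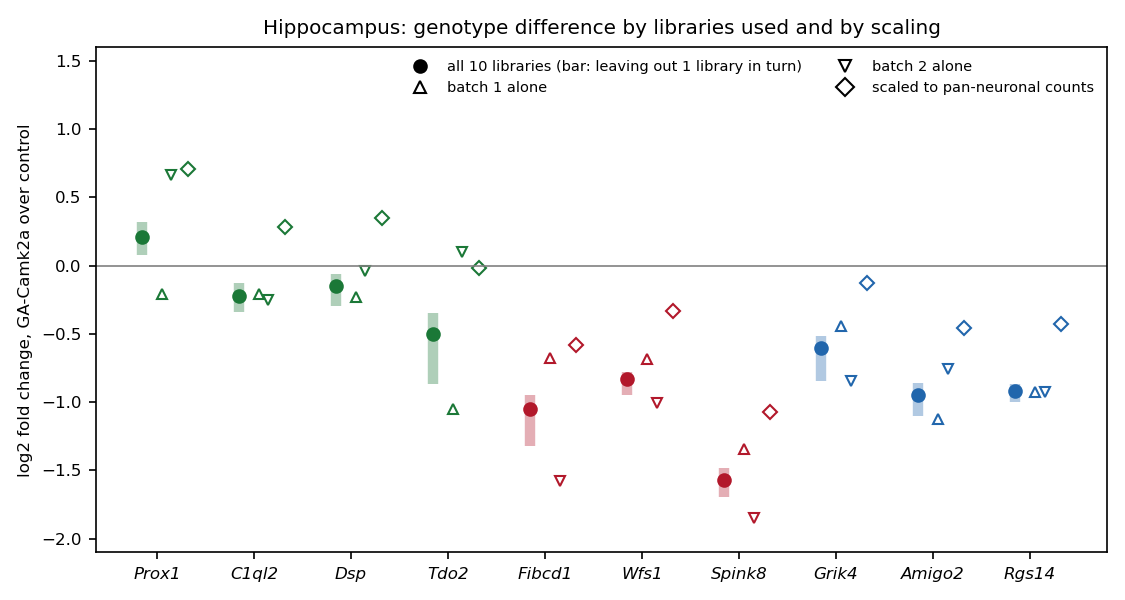
Hippocampal log2 fold change of each marker with all 10 libraries (circles, with bars for the range when each library was left out in turn), in each batch alone (triangles) and after scaling to pan-neuronal counts (diamonds). The diamonds are shifted upwards for every marker, by about the shift of the median of all genes to 0.51, and Prox1 differs in sign between the batches.

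Genes of other cell types moved in the same comparison, where 5.97% of all genes tested were called lower and 4.97% higher. All 6 genes of the excitatory neuron list were called lower, with a median log2 fold change of -0.87, and 8 of 9 pan-neuronal genes were, with a median of -0.43. Summed pan-neuronal levels were 4251 to 4766 CPM in control and 2923 to 3831 CPM in GA-Camk2a hippocampi, and the summed excitatory genes were 2165 to 2708 CPM and 1172 to 1558 CPM. Of 10 microglial genes 8 were called higher, with summed levels of 382 to 477 CPM in controls and 779 to 1270 CPM in GA-Camk2a mice, and of 6 astrocyte genes 4 were, with 1967 to 2308 CPM and 3325 to 4730 CPM. Of the 7 inhibitory neuron genes 2 were higher and none lower. No gene of the oligodendrocyte, precursor, endothelium, choroid plexus, thalamus, striatum, cortex layer or neuroblast lists that passed the filter was called in hippocampus, where 3 of 6 striatum and 2 of 5 neuroblast genes passed it and all genes of the other lists did. No gene of these lists was at 0 in all libraries of a hippocampal group. The part of these shifts in the marker differences was not tested.

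Further genes of the fields were taken from lists of markers that are not among the 10. The counts below stand beside 5.97% of all genes tested called lower and 4.97% called higher. Of 12 other dentate genes tested, 1 was called lower and none higher, with a median of 0.06. Of 7 other CA1 genes 1 was lower, with a median of -0.38. Of 7 other CA2 genes 1 was higher, with a median of -0.23, and of 7 other CA3 genes 4 were lower, with a median of -0.47. The medians of the longer CA1, CA2 and CA3 lists were thus nearer to 0 than those of the markers. In control mice, 3 of 7 other CA1, 2 of 7 CA2 and 4 of 7 CA3 genes were called higher in hippocampus than cortex. In each CA list 1 gene was called lower, while 6 of 11 other dentate genes were higher and 0 lower. Of all genes tested there, 8.69% were called higher and 7.6% lower. The lists thus held many genes that did not mark hippocampus in these dissections.

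The called genes of these lists had the following levels. Bok, a BCL-2 family member listed for CA3, had 74.4 to 134 CPM in controls and 34.03 to 54.4 CPM in GA-Camk2a mice (log2 fold change -1.33 ± 0.16, SE, edgeR, adjusted p = 7.42e-05). Socs2, a suppressor of cytokine signalling listed for CA3, had 28.7 to 35.1 CPM and 17.3 to 24.2 CPM (-0.58 ± 0.11, adjusted p = 0.00396). Spock1, a secreted proteoglycan of the CA3 list, had 141 to 197 CPM and 108 to 146 CPM, with overlap (-0.47 ± 0.12, adjusted p = 0.0208). Pou3f1, a POU-domain transcription factor of the CA1 list, had 50.15 to 67.8 CPM and 22.0 to 55.4 CPM, also with overlap (-0.76 ± 0.18, adjusted p = 0.0141). Nectin3, the fourth CA3 gene called and outside the rule for naming genes, had -0.50 ± 0.15 (adjusted p = 0.0402). Lct, the lactase gene, was the exception in the dentate list, with 6.62 to 13.1 CPM in controls and 2.09 to 3.90 CPM in GA-Camk2a mice (-1.88 ± 0.27, adjusted p = 0.000356). Ccdc3, listed for CA2, went up from 6.96 to 10.4 CPM in controls to 14.6 to 27.9 CPM in GA-Camk2a mice (1.39 ± 0.20, adjusted p = 0.000361), against the direction of Rgs14 and Amigo2. In control mice, Bok, Socs2, Pou3f1 and Lct were called higher in hippocampus than in cortex. Ccdc3 and Spock1 were not (-0.17 ± 0.23 and -0.36 ± 0.15, SE, edgeR, adjusted p = 0.669 and 0.115). These 2 genes therefore did not mark hippocampus here.

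In cortex none of the 7 markers that passed the filter on low counts was called (edgeR), where 12.5% of the 13058 genes tested were, 6.35% higher and 6.17% lower. All 7 overlapped between the genotypes, where 3.5% of the genes lay wholly higher and 2.67% wholly lower. At an unadjusted p under 0.05 the count was 1 of 7, Rgs14, where 3388 of the 13058 genes tested reached that level, and DESeq2 and limma-voom called 0 as well. C1ql2, Dsp and Tdo2 fell under the filter. Rgs14 had 23.9, 27.2, 36.3, 34.9 and 40.7 CPM in controls 11, 20, 31, 37 and 38, and 22.5 to 30.95 CPM with a median of 26.2 CPM in GA-Camk2a mice. Its log2 fold change was -0.35 ± 0.14 (SE, adjusted p = 0.121 and unadjusted p = 0.0232 in edgeR).

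The other cortical fold changes were 0.38 ± 0.19 for Prox1, -0.36 ± 0.22 for Fibcd1, 0.13 ± 0.13 for Wfs1, 0.25 ± 0.22 for Spink8, 0.21 ± 0.21 for Grik4 and -0.08 ± 0.22 for Amigo2 (SE, edgeR, adjusted p from 0.217 to 0.897). Wfs1 is abundant in cortex, with 50.6 to 72.0 CPM in controls and 51.2 to 91.5 CPM in GA-Camk2a mice. The filtered markers were near the limit of detection. Dsp had 0 to 12 counts per cortical library, with 0 in control mouse 20, which allows up to 2.72 CPM, and Tdo2 had 0 to 7, with 0 in GA-Camk2a mouse 35, which allows up to 1.75 CPM. C1ql2 had 1 to 18 counts, with a mean of 4.85 ± 2.07 CPM in the controls (SD, n = 5) and of 4.30 ± 1.93 CPM in the GA-Camk2a group (SD, n = 6).

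After scaling to pan-neuronal counts, which moved the cortical median of all genes from -0.01 to 0.42, 4 markers were called higher in cortex: Prox1 at 0.81, Wfs1 at 0.55, Spink8 at 0.67 and Grik4 at 0.63 (edgeR, adjusted p = 0.00249, 0.0019, 0.0201 and 0.0276). At this scaling 6707 of the 13058 genes tested were called higher and 115 lower, so a higher call was the common outcome. Relative to the shifted median the 4 markers were at 0.39, 0.14, 0.26 and 0.21. At the first scaling, striatal markers moved with genotype in the cortex libraries. There 6 of 6 were called lower, where 6.17% of all genes tested were. Their summed level was 345 to 522 CPM in controls and 119 to 203 CPM in GA-Camk2a mice. Their part in the cortical marker levels was not tested.

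Whether the genotype difference itself differed between the tissues was tested as an interaction over all 21 libraries. This test called 2 of 10 markers, both of CA1, where 0.4% of the 14751 genes tested were called, 0.251% as lower in hippocampus and 0.149% as higher. For Spink8 the log2 fold change in hippocampus minus that in cortex was -1.83 ± 0.25 (SE, adjusted p = 0.000798 in edgeR). For Wfs1 it was -0.96 ± 0.20 (SE, adjusted p = 0.0273). The Wfs1 call did not hold when hippocampal controls 31 or 37, hippocampal GA-Camk2a libraries 23, 30 or 41, or cortical controls 11, 31 or 37 were left out 1 at a time (adjusted p up to 0.0898), nor with pan-neuronal scaling (adjusted p = 0.0518), nor without the Rorb-high or the choroid-high libraries (adjusted p = 0.0645 and 0.0937). The Wfs1 value was -0.87 with pan-neuronal scaling, -0.997 without the Rorb-high and -0.95 without the choroid-high libraries, and -0.975 to -0.87 in the 8 fits that lost the call. Both calls were lost in either batch alone, which holds fewer libraries, at -1.60 and -1.975 for Spink8 (adjusted p = 0.224 and 0.233) and -0.73 and -1.24 for Wfs1 (adjusted p = 0.661 and 0.520) in batches 1 and 2.

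The interaction was not called for Fibcd1 (-0.70 ± 0.35), Grik4 (-0.79 ± 0.32), Amigo2 (-0.84 ± 0.28) or Rgs14 (-0.59 ± 0.18), with adjusted p from 0.189 to 0.51 (SE, edgeR). Among the dentate markers it was -0.20 ± 0.27 for Prox1 and -0.21 ± 0.38 for C1ql2 (adjusted p = 0.869 and 0.919). Dsp and Tdo2 had too few cortical counts for a precise value, with SE of 0.46 and 0.71. Of the 10 markers, Spink8 kept its call in every fit that left out 1 library, Wfs1 did not, and for Fibcd1 and the CA2/CA3 and dentate markers no difference between tissues was shown.

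Hippocampus and cortex were also compared within GA-Camk2a mice, and the test of whether this contrast differs from that in controls is the interaction above. In these mice 5 markers were called higher in hippocampus and 1 lower, where 33.2% of the 13098 genes tested were called, 17.3% higher and 15.9% lower. The same 5 had every hippocampal library above every cortical one, as 9.54% of the genes did, and Wfs1 had every one below, as 3.46% did. Spink8 was higher by 1.436 ± 0.17, against 3.17 in controls, and Fibcd1 by 1.74 ± 0.22, against 2.30 (SE, adjusted p = 1.19e-05 and 2.31e-05 in edgeR). Wfs1 was lower in hippocampus in 6 of 6 mice, with a log2 difference of -1.16 ± 0.15 (SE, adjusted p = 2.06e-05 in edgeR), from 67.1 ± 15.0 CPM in cortex to 31.7 ± 4.96 CPM in hippocampus (SD, n = 6). The 3 CA2/CA3 markers no longer passed, with 0.43 ± 0.21 for Grik4, 0.49 ± 0.19 for Amigo2 and 0.23 ± 0.12 for Rgs14 (SE, adjusted p = 0.119, 0.0597 and 0.157 in edgeR). Amigo2 passed without hippocampal mouse 23 (0.56, adjusted p = 0.0279). With pan-neuronal scaling, which moved the median of all genes from -0.0059 to 0.27 in this comparison, all 3 passed, at 0.69, 0.77 and 0.50 (adjusted p = 0.0106, 0.00619 and 0.00571), where 4630 of the 13098 genes tested were called higher.

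The dentate markers stayed higher in the hippocampus of GA-Camk2a mice, by 1.78 ± 0.18 for Prox1, 2.74 ± 0.21 for C1ql2 and 2.79 ± 0.28 for Dsp (SE, adjusted p = 2.8e-06, 1.94e-07 and 2.75e-06 in edgeR). Tdo2 fell under the filter. In both genotypes every mouse with both tissues had more Prox1, C1ql2 and Dsp in hippocampus, and every hippocampal library was above every cortical one. Of the GA-Camk2a mice, 5 of 6 had more Grik4, 6 of 6 more Amigo2 and 4 of 6 more Rgs14 in hippocampus, against 4 of 4 controls for each. The tissue comparisons and the interaction share libraries with the genotype comparisons, so these values are not separate evidence.

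**Figure D5:**
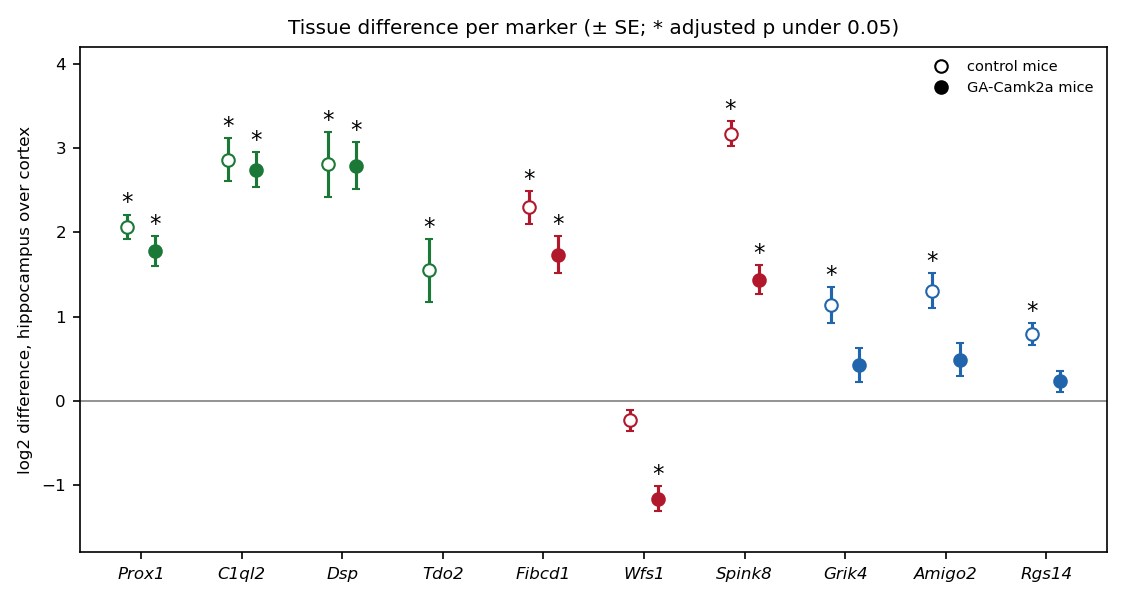
Log2 difference of hippocampus over cortex for each marker in control mice (open) and GA-Camk2a mice (filled), with bars for the SE and asterisks for an adjusted p under 0.05. Spink8 goes from 3.17 to 1.436 and Wfs1 from -0.23 to -1.16, while C1ql2, at 2.86 and 2.74, and Dsp, at 2.81 and 2.79, stay close.

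Across the 4 groups the levels had the following order, where only groups that share a tissue or a genotype were tested against each other. For C1ql2 and Dsp every hippocampal library of both genotypes lay above every cortical one, and the genotypes overlapped within each tissue, with no test in cortex. Prox1 had the same order, with 50.0 ± 15.7 and 40.3 ± 5.03 CPM in GA-Camk2a and control hippocampus (SD, n = 6 and n = 4) and 12.3 ± 2.65 and 9.32 ± 1.70 CPM in cortex (SD, n = 6 and n = 5). For Spink8 and Fibcd1 control hippocampus was highest, GA-Camk2a hippocampus second and the cortical groups lowest. For Rgs14 and Amigo2 control hippocampus was highest, and GA-Camk2a hippocampus was not called different from GA-Camk2a cortex. Grik4 also had its highest mean in control hippocampus, but neither its step between the hippocampal groups nor that from GA-Camk2a hippocampus to cortex was called. Of the markers, Wfs1 had its lowest mean in GA-Camk2a hippocampus, and its control hippocampus was not called different from control cortex, nor its 2 cortical groups from each other.

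To see which other genes follow each field across the 21 libraries, the mean log2 CPM profile of each marker set was compared with 11248 genes. The measure was the root mean square distance between profiles centred on their own means, and no test applies, since the profiles chose the genes. Closest to the dentate set were Tanc1, Sema5a and Zbtb20, at distances of 0.26, 0.31 and 0.32. Zbtb20, a zinc finger transcription factor of the developing hippocampus, had 406 to 505 CPM in control and 430 to 634 CPM in GA-Camk2a hippocampus, and 62.7 to 123 CPM over both cortical groups. The distance of the markers from their own mean was 0.34 for Prox1, 0.43 for Dsp, 0.46 for C1ql2 and 0.66 for Tdo2. The 3 genes were picked for their small distance, so this is no comparison with the markers.

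Closest to the CA1 set were Gabra5, Myo5b and Rasd1, at 0.23, 0.25 and 0.27. Gabra5, a GABA-A receptor subunit of hippocampal pyramidal cells, had 116.5 to 159.5 CPM in control and 54.1 to 77.2 CPM in GA-Camk2a hippocampus, and 42.2 to 65.1 CPM in cortex. The CA1 markers themselves lay at 0.42 for Fibcd1, 0.58 for Spink8 and 0.90 for Wfs1, whose cortical level sets it apart. Closest to the CA2/CA3 set were Hs3st4, Lrrn2 and Socs2, at 0.21, 0.22 and 0.22, and the markers lay at 0.23 for Amigo2, 0.24 for Rgs14 and 0.26 for Grik4. Lrrn2, which encodes a leucine-rich repeat membrane protein, had 90.9 to 102 CPM in control and 50.0 to 68.1 CPM in GA-Camk2a hippocampus, and 38.2 to 60.6 CPM in cortex. The CA2/CA3 markers thus had the smallest distances of the 3 sets, which does not rank the sets by likeness of expression. The distance is in log2 units, so it is smaller where genes differ less between tissues. It also grows with counting error in genes with few counts.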

How the data were processed

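The authors aligned prime-seq reads to the mouse genome GRCm39 and used zUMIs for counting. The deposited values are whole-number counts of each gene, not normalized, with a GFP row. The submitters' processing notes also name FastQC 0.11.8, cutadapt 1.12, STAR and DESeq2 1.44. Whether molecular identifiers or reads were counted, the annotation, and the use of introns and strand are not given in the sources used here, so genes that overlap others are uncertain. Symbols came from a GENCODE annotation matched on the Ensembl number. The table held 64362 rows, of which the GFP row entered neither library sizes nor tests. No library was left out, and 0 columns were unused. The 46 replicate pairs had a chi-square per degree of freedom of 2.10 to 15.1, so all were kept apart.

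Groups, mice and batches came from the labels. Comparisons were fitted with edgeR 4.0.16 in R 4.3.3 (TMM, filterByExpr with a minimum count of 10, quasi-likelihood F-test, batch as a covariate), adjusted by Benjamini-Hochberg over all genes tested, with a threshold of 0.05. SE was the log2 fold change divided by the square root of F. DESeq2, which the study used with no covariate stated, was an alternative in that form, beside DESeq2 1.42.0 with batch, limma 3.58.1 voom, other normalizations, no filter, thinned counts, single batches and leaving out each library. The scripts were tested on simulated data. The tissue comparisons use the same mice, which pairs the libraries. The correlation of a mouse's deviations in both tissues was -0.13 to 0.21, and the mouse was a block in an alternative.

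The markers and lists were chosen with earlier results of these data known. Named were the 10 markers in every comparison, up to 3 called genes per other list, and 3 genes nearest in profile per marker set with an average log2 CPM of at least 3. Precision follows from the total counts, and limits for a count of 0 (3 counts) cover counting error only.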

Additional observations from a re-analysis of the deposited data

Results flagged for a closer look

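Among the 40 groups of marker values, 1 had a library far from the others, where chance gives about 1 in 20. Prox1 in the cortex of control mouse 20 was at 6.36 CPM (7 counts), below the next library at 9.54 CPM. The genotype effect differed between hippocampus and cortex for Spink8, by -1.83 on the log2 scale, and for Wfs1, by -0.96, in the interaction test of the report (edgeR, adjusted p = 0.000798 and 0.0273).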

How the results depend on the processing

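Of the marker values under other settings, 1072 kept their direction and their side of the threshold, 23 lost it, 15 gained it and 34 changed sign. In hippocampus 5 markers were called, 2 with batch 1 alone (Spink8 and Rgs14), and 5 to 6 when each library was left out. Values there changed sign with pan-neuronal scaling (C1ql2 0.28, Dsp 0.35, dentate median 0.31), in batch 1 alone (Prox1 -0.21) and in batch 2 alone (Tdo2 0.10). In cortex the count of 0 became 4 with pan-neuronal scaling, which called 6707 of 13058 genes higher, and there Fibcd1 was 0.056, Amigo2 and the CA2/CA3 median 0.34 and Rgs14 0.085. Also in cortex, the dentate median, which is Prox1 alone in the report, was -0.13 over all 4 genes without a filter, where Prox1 stayed at 0.36. Amigo2 and the CA2/CA3 median were 0.23 in batch 1 alone, and Grik4 was -0.18 in batch 2 alone. Leaving out each cortex library gave Amigo2 and the CA2/CA3 median -0.21 to 0.065 and Wfs1 -0.00013 to 0.24.

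For the difference between tissues, the 2 called markers became 1 with pan-neuronal scaling and without the Rorb-high or choroid-high libraries, 0 in either batch alone, and 1 to 2 when each library was left out. Signs there changed for Dsp with limma-voom (-0.13), for C1ql2 (0.045) and Dsp (-0.042) with thinned counts, and in batch 2 alone for Prox1 (0.39), C1ql2 (0.92), Dsp (-1.60), Tdo2 (2.79) and the dentate median (0.65). They also changed without the Rorb-high libraries (Prox1 0.0048, Tdo2 0.065) and without the choroid-high ones (Prox1 0.051). Leaving out each library gave -0.52 to 0.063 for C1ql2, -0.85 to 0.31 for Dsp and -0.46 to 0.16 for Tdo2. The cause of these changes was not tested, apart from the fewer libraries of a single batch. The sets of Rorb-high and choroid-high libraries were chosen after seeing the data.

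With the mouse as a block, which pairs the 10 mice with both tissues, the difference between tissues was -1.88 for Spink8 and -1.03 for Wfs1 (edgeR, adjusted p = 0.0138 and 0.0187), and the block changed no call among the markers that it could test. Tdo2 fell under the filter there in controls. Low counts limit Tdo2 in both tissues and Dsp and C1ql2 in cortex.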

Other observations

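Some genes of the longer field lists, named here after their values were seen, were lower in the cortex of GA-Camk2a mice, where the 7 tested markers were not called. Pcp4, a calmodulin-binding protein of the CA2 list that is also known from deep cortical layers, had a log2 fold change of -0.91 in cortex (edgeR, adjusted p = 2.4e-06) and of -0.23 in hippocampus (adjusted p = 0.232). Ndst4, an enzyme of heparan sulfate synthesis in the CA1 list, had -1.06 in cortex (adjusted p = 0.00975) and -0.38 in hippocampus (adjusted p = 0.192). Of the longer lists, 2 of 10 dentate, 3 of 6 CA1, 1 of 6 CA2 and 2 of 7 CA3 genes tested were called lower in cortex and none higher, where 6.17% of all genes tested were lower and 6.35% higher. In the same comparison 4 of 6 excitatory neuron genes (median -0.53) and 5 of 9 pan-neuronal genes (median -0.33) were lower, and 8 of 10 microglial genes (median 0.90) and 3 of 6 astrocyte genes (median 0.45) were higher. Their part in these values was not tested.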
